A study of Triticum aestivum with 15 samples.

Results

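In the flag leaves of the hard red winter wheat cultivars TAM112 and TAM111, 185 of 101223 loci with a reference gene met a rule for expression in 1 cultivar only. They formed 2 groups, called TAM112-only and TAM111-only after the rule, although most TAM112-only loci had reads in 2 of the 7 TAM111 libraries. The 90 TAM112-only loci had at least 1 FPKM in each of the 8 TAM112 libraries and a TAM111 median of at most 0.1 FPKM. The 95 TAM111-only loci had a TAM111 median of at least 1 FPKM and at most 0.1 FPKM in each of the 8 TAM112 libraries. FPKM is the number of sequenced fragments per kilobase of transcript, scaled to the fragments of the library, and the FPKM of all assembled transcripts that overlap a locus was summed. Part 1 of chromosomes 1A, 1B and 1D was left out of the choice. Of the 101223 loci, 38035 reached 1 FPKM in at least 2 libraries, so the groups made up 0.237% and 0.250% of the loci expressed in these leaves. Since the levels in the cultivars chose the loci, the cultivar difference is described here without a test.

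The study compared dry with wet leaves within each cultivar, and the cultivars with each other under dry and wet conditions. The plants were grown in pots in a greenhouse. The study describes more replicates per group than the libraries used here. Flag leaves of 4 plants were pooled per sample at heading (HD, 79 days after transplanting) and at grain filling (GF, 100 days after transplanting). TAM112 had 2 libraries each of GF dry, GF wet, HD dry and HD wet leaves. TAM111 had 2 libraries each of GF dry, GF wet and HD dry leaves and 1 library of HD wet leaves. Dry pots had been under a water deficit since jointing and wet pots were fully irrigated. The confidence bounds beside the FPKM gave an estimated 6.91 to 9.14 M fragments per library. This is lower than the reads per sample that the study gives, and the reason was not tested. Loci listed as Rubisco activase, photosystem II 10 kDa polypeptide or ferredoxin-NADP reductase, which belong to photosynthetic leaf tissue, were above 0 FPKM in all 15 libraries, the lowest value being 0.371 FPKM. In whole leaves, fewer cells of a type and less RNA per cell cannot be told apart.

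Bread wheat has 3 related subgenomes (A, B and D) on 21 chromosomes, and most genes have close copies on the other subgenomes. Cultivars differ in deleted, introgressed and duplicated stretches, and genes of the defence system are known to vary in presence between cultivars. The files were made against the reference genome of another cultivar, Chinese Spring. A locus that is missing from a cultivar, one too diverged for its reads to align, and one that is present but silent cannot be told apart in these data.

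2 TAM111 libraries stood apart at the TAM112-only loci. In HD dry replicate 1 83 of the 90 loci were above 0.1 FPKM, and in GF wet replicate 1 79 were, against 2 to 8 of the 90 in each of the other 5 TAM111 libraries. The levels there lay between those of the cultivars: the median ratio to the TAM112 libraries of the same stage and treatment was 0.512 in HD dry replicate 1 and 0.404 in GF wet replicate 1, against 0 in each of the other 5. The same 76 loci were above 0.1 FPKM in both, and they lay on 19 of the 20 chromosomes that held a TAM112-only locus. The TAM111-only loci were lower in these libraries, with a median ratio to the other TAM111 libraries of 0.400 in HD dry replicate 1 and 0.557 in GF wet replicate 1, against 0.834 to 1.10 in the rest.

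Loci on the left-out chromosome parts behaved alike. On part 1 of 1A, where TAM112 carries a rye chromosome arm, 46 loci met the TAM111-only thresholds, and their median ratio was 0.439 and 0.548 in these libraries against 0.861 to 0.999 in the other TAM111 libraries. Over all loci of at least 1 FPKM in every library the median ratio to TAM112 was 0.948 and 0.984 in the 2 libraries, within the 0.938 to 1.07 of the other 13. Whether these libraries hold RNA of both cultivars was not tested, and each TAM111 median, ratio and dry–wet change that includes them carries that doubt. The TAM111 median in the rule passes over 2 of 7 libraries, so the groups were chosen largely by the other 5: in all 7 TAM111 libraries only 1 of the 90 loci was at most 0.1 FPKM, while 66 were in the other 5 and 61 of these were at exactly 0.

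**Figure D1:**
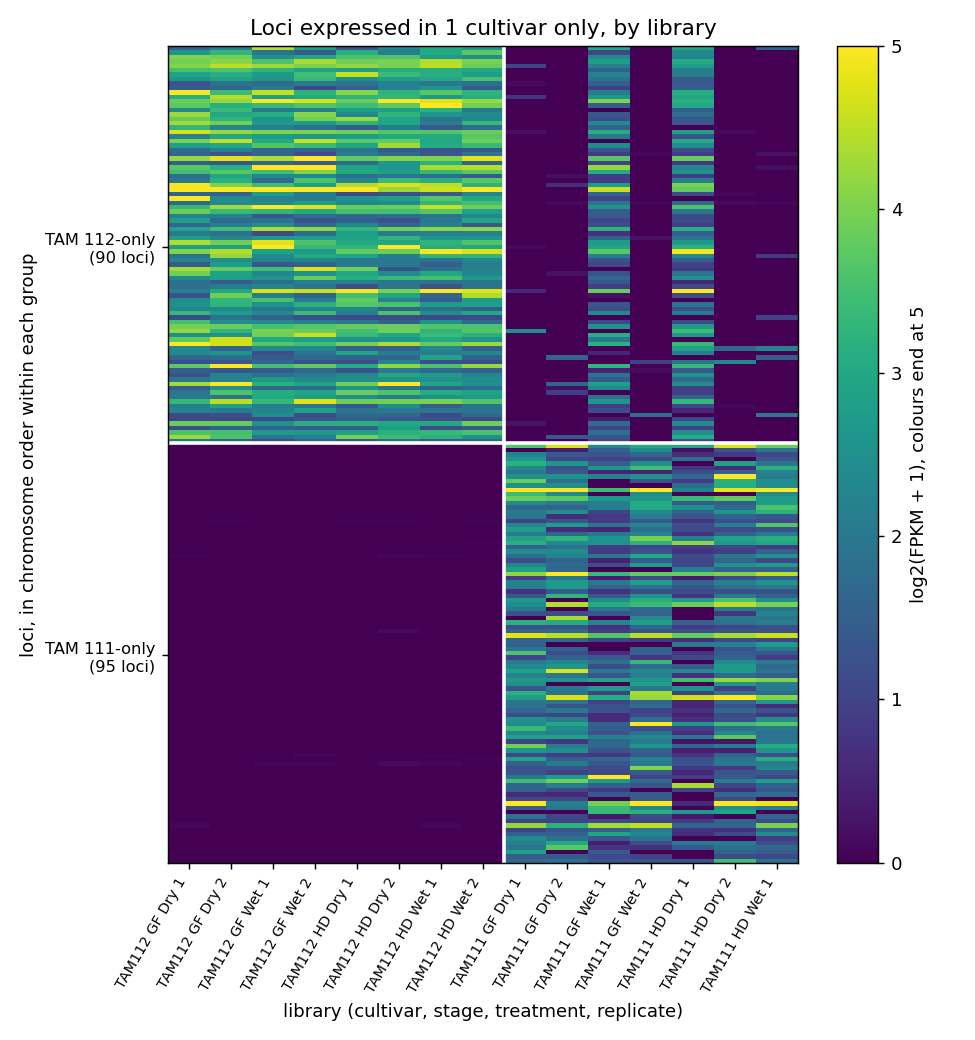
Level of each of the 185 loci (rows, in chromosome order within each group) in the 15 libraries (columns, TAM112 left of TAM111), as log2(FPKM + 1) with colours ending at 5. The TAM112-only loci are dark in 5 TAM111 libraries and of middle brightness in TAM111 GF wet replicate 1 and HD dry replicate 1, where many TAM111-only loci are darker than in the other TAM111 libraries.

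**Figure D2:**
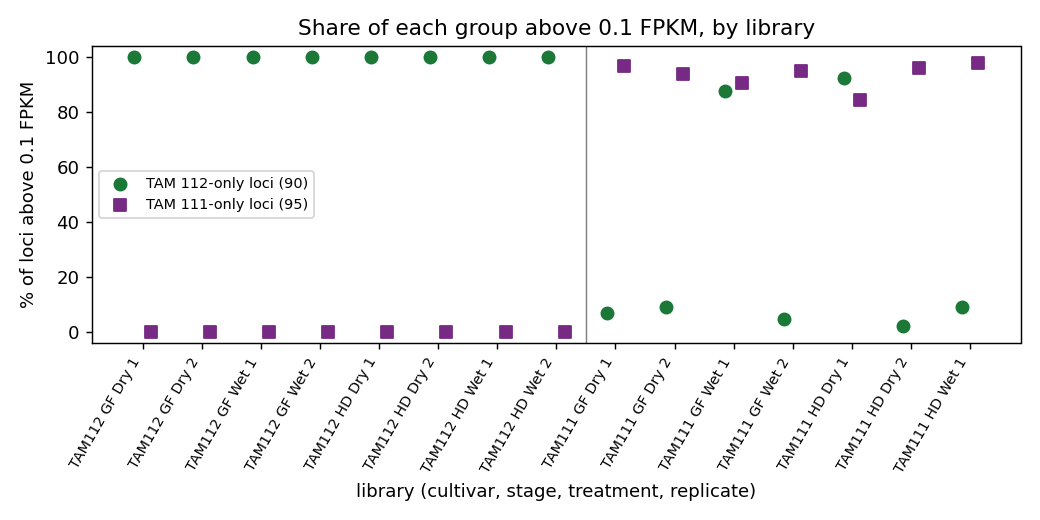
Share of the 90 TAM112-only loci (circles) and of the 95 TAM111-only loci (squares) above 0.1 FPKM in each library. All TAM112 libraries are at 100% and 0% by the rule, and TAM111 GF wet replicate 1 and HD dry replicate 1 have 87.8% and 92.2% of the TAM112-only loci against at most 8.89% in the other 5 TAM111 libraries.

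The TAM112-only loci were expressed at a median of 6.51 FPKM in TAM112, with the loci spread between 1.19 and 38.5 FPKM. The TAM111-only loci had a median of 2.40 FPKM in TAM111 and ranged from 1.0 to 32.7 FPKM. Loci with a median of at least 1 FPKM had medians of 3.82 FPKM in TAM112 and 3.86 FPKM in TAM111 over 28708 and 28767 loci. The floors of the groups differ, since the first asked for 1 FPKM in every library and the second for a median. The largest assembled transcript of the typical locus held 19.2 fragments per TAM112 library in the first group and 13.0 fragments per TAM111 library in the second, so single values carry a wide counting error.

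The highest TAM112-only locus was TraesCS2B01G539100 on 2B, with 17.6, 38.5 and 70.4 FPKM as the lowest, median and highest of the TAM112 libraries. It was listed at 0 in 5 TAM111 libraries and had 23.1 FPKM in GF wet replicate 1 and 12.9 FPKM in HD dry replicate 1. TraesCS4D01G228500 had 3.57, 24.3 and 109 FPKM in TAM112, against at most 0.483 FPKM in the other 5 TAM111 libraries and 13.3 and 38.6 FPKM in GF wet replicate 1 and HD dry replicate 1. By its largest transcript it had 3.57 and 7.07 FPKM in GF dry TAM112 leaves, against 25.2 and 23.3 FPKM in GF wet leaves. At HD it had 31.7 and 14.8 FPKM in dry leaves, against 109 and 25.9 FPKM in wet leaves, which overlap. No fit with all 15 libraries, without the 2 TAM111 libraries or with TAM112 alone called it between dry and wet. TraesCS2B01G030400 had 12.7, 19.1 and 31.6 FPKM in TAM112 and was at 0 in 5 TAM111 libraries. At both 2B loci no TAM112 library was below 12.7 FPKM. TraesCS2B01G415900, listed as a histone H1, the linker histone that packs nucleosomes, had 6.19, 17.9 and 29.3 FPKM in TAM112 and at most 0.583 FPKM in those 5.

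The highest TAM111-only locus by summed FPKM was TraesCS2B01G238700, with 3.52, 32.7 and 52.1 FPKM as the lowest, median and highest of the TAM111 libraries. Its largest transcript held a median of only 3.27 fragments per library and had 3.52 to 14.2 FPKM. TraesCS7B01G213500 spread widely, from 0.532 FPKM in HD dry replicate 1 to 59.0 FPKM in GF dry replicate 1, where its largest transcript had 2.36 FPKM. By that transcript no TAM111 library was above 4.50 FPKM. TraesCS5A01G384300 was steadier, with 11.6, 21.1 and 26.5 FPKM in TAM111, and its largest transcript had the same lowest and highest values. TraesCS4B01G170600 had 9.37, 15.2 and 42.9 FPKM, and the merged locus TraesCS6B01G389700, TraesCS6B01G389800 had 5.67, 17.7 and 42.2 FPKM. By the largest transcript their highest values were 31.8 and 16.9 FPKM. All 5 were listed at 0 in the 8 TAM112 libraries, as were 87 of the 95 TAM111-only loci.

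7 of the 185 loci carried a product name in the study's tables, which name 694 selected loci, so no share of functions is read from them. Disease resistance proteins are mostly intracellular receptors that recognise pathogen molecules and start defence. Among the TAM112-only loci, TraesCS7D01G011800, listed as a barley stem rust resistance protein, had 9.06, 14.1 and 26.0 FPKM in TAM112 and was at 0 in 5 TAM111 libraries, with 5.21 and 9.08 FPKM in GF wet replicate 1 and HD dry replicate 1. The merged locus TraesCS2A01G003900, TraesCS2A01G004300, listed as disease resistance protein At1g50180, had 11.6, 14.6 and 25.5 FPKM in TAM112 and at most 0.167 FPKM in those 5. Of the TAM111-only loci, TraesCS7B01G459600, listed as disease resistance protein RF9, had 2.03, 14.8 and 21.9 FPKM in TAM111 and at most 0.0607 FPKM in TAM112. TraesCS7A01G007300, listed as an RPP13-like protein, had 0.332, 1.93 and 5.03 FPKM in TAM111 and 0 in TAM112. TraesCS4B01G126100, listed as a leucine-rich repeat receptor kinase, a class of cell surface receptors, and TraesCS7B01G462900, listed as a coatomer subunit of transport vesicles, had TAM111 medians of 1.97 and 1.94 FPKM.

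The loci near the thresholds differed from their neighbours by little. The lowest TAM112 library of TraesCS1D01G442100 had 1.05 FPKM and that of TraesCS2B01G543400, TraesCS2B01G543500, TraesCS2B01G543600 had 1.09 FPKM. Just outside lay TraesCS5A01G004300 with 0.964 FPKM and TraesCS1A01G349000 with 0.868 FPKM. On the ceiling, TraesCS2A01G003900, TraesCS2A01G004300 had a TAM111 median of 0.0935 FPKM and TraesCS3A01G033600, TraesCS3A01G033700 of 0.0741 FPKM, while TraesCS1D01G445800 with 0.108 FPKM and TraesCS6A01G417700 with 0.115 FPKM fell outside. For TAM111-only loci, TraesCS7A01G005400 and TraesCS3B01G210800 had TAM111 medians of 1.0 and 1.03 FPKM and were inside. TraesCS3B01G101000 and TraesCS6A01G328100 had 0.997 and 0.965 FPKM and were outside. The highest TAM112 library was at 0.0930 FPKM for TraesCS7A01G021400 and 0.0853 FPKM for TraesCS5A01G327900, both inside. It was at 0.104 FPKM for TraesCS7B01G446400, TraesCS7B01G446500, TraesCS7B01G446600 and 0.105 FPKM for TraesCS4A01G274200, both outside.

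Both groups lay towards chromosome ends. Of the placed loci, 43 of 86 TAM112-only loci (50%) and 42 of 93 TAM111-only loci (45.2%) were within 50 Mb of an end, against 22.3% of all expressed loci outside the left-out parts. The gene models were shorter, with a median of 3 exons in both groups against 5 over all, and spliced lengths of 886 and 1077 bases against 1222 bases. Loci merged from several reference genes made up 10 of the 90 TAM112-only loci (11.1%) and 3 of the 95 TAM111-only loci (3.16%), against 2.93% of all. The D subgenome held 32 TAM112-only loci (35.6%) and 19 of the 95 TAM111-only loci, against 32.4% of all.

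On single chromosomes the groups had different peaks. TAM112-only loci were most numerous on 1D, where part 2 alone held 12 of them, 4.26% of its 282 expressed loci, followed by 2B with 10, and 4D and 7A with 7 each. None lay on 5D. TAM111-only loci were most numerous on 7A with 12, 5A and 7B with 11 each, and 6D with 8, which is 0.489% to 0.623% of the loci of those chromosomes. None lay on 3D or on part 2 of 1D.

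**Figure D3:**
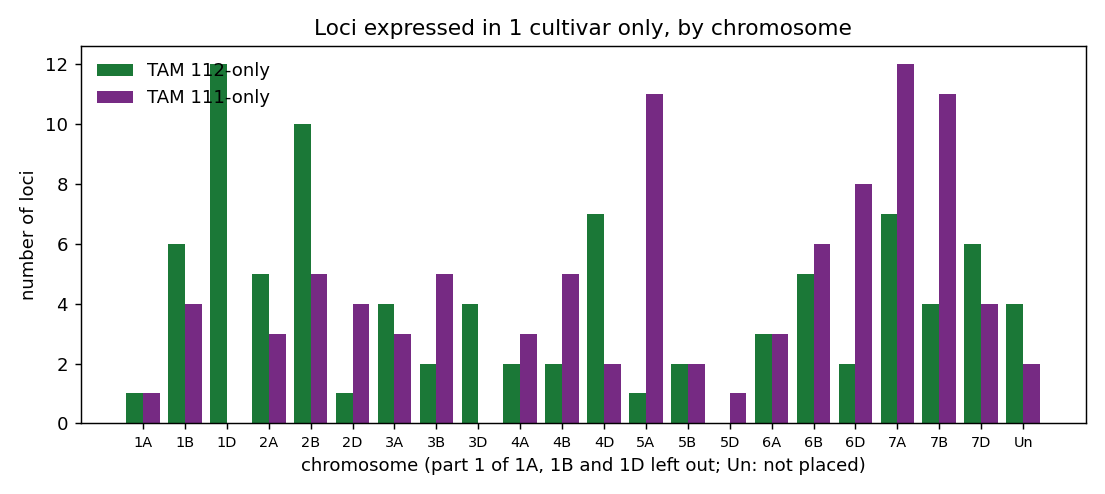
Number of TAM112-only loci (left bar) and TAM111-only loci (right bar) on each chromosome, with part 1 of 1A, 1B and 1D left out and Un for loci on no chromosome. The highest bars are the 12 TAM112-only loci of 1D and the 12 TAM111-only loci of 7A.

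Members of a group that lay within 1 Mb of each other were joined into runs. The TAM112-only loci had 7 runs that held 17 of the 86 placed loci (19.8%). The TAM111-only loci had 11 runs with 27 of 93 (29.0%). On at least 1 side, a locus of the same group was the direct neighbour, among expressed loci, of 5 TAM112-only loci (5.81%) and 12 TAM111-only loci (12.9%). The groups were 0.237% and 0.250% of all such loci, a share per locus, while the neighbours on both sides of each locus were looked at.

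The longest TAM112-only run had 5 loci on part 2 of 1D, between 36911772 and 38753492 of the IWGSC RefSeq v1.0 part. TraesCS1D01G446500 had 5.64, 7.71 and 20.5 FPKM as the lowest, median and highest of the TAM112 libraries. TraesCS1D01G447000 had a median of 21.3 FPKM and TraesCS1D01G447100, TraesCS1D01G447200 of 11.9 FPKM. TraesCS1D01G447700 and TraesCS1D01G448600 had medians of 5.14 and 7.54 FPKM. All 5 were at 0 in at least 4 of the 5 TAM111 libraries, the only value above 0 being 0.701 FPKM of TraesCS1D01G446500 in GF dry replicate 1. At 2 of these loci the highest summed values came from very short assembled transcripts: 3556 FPKM for TraesCS1D01G447100, TraesCS1D01G447200 in HD wet replicate 1 and 127 FPKM for TraesCS1D01G447000 in HD dry replicate 2, where the largest transcript alone had 14.5 and 19.8 FPKM.

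The run was part of a longer stretch in which the other loci were lower in TAM111 too. From TraesCS1D01G436800 at 32210744 to the last expressed locus of 1D, 43052208, a length of 10.8 Mb held 55 loci with a median of at least 1 FPKM in a cultivar, counted by the largest transcript of each locus. 11 of them were TAM112-only loci. All 55 had a higher median in TAM112 than in TAM111, and 41 (74.5%) were at least 2-fold higher on the log2(FPKM + 1) scale. Without the 11 TAM112-only loci, 30 of 44 were at least 2-fold higher, with a median log2 difference of 1.24. The median level over the 55 loci was 4.22 FPKM in TAM112 and 0.465 FPKM in TAM111, and 0.364 FPKM in 5 TAM111 libraries. For 48 of the 55 the lowest TAM112 library was above the highest of these 5, and for 26 it was above all 7 TAM111 libraries. The rule chose the 11 TAM112-only loci for such a difference, and without them these counts were 37 and 21 of 44. Among the 65 loci in the 10.7 Mb before the stretch both counts were 0.

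The change set in abruptly. In the 10.7 Mb before it, 65 loci had a median log2 difference of 0.00, and 1 of them was at least 2-fold higher in TAM112. Within the stretch the mean of TAM111 HD dry replicate 1 and GF wet replicate 1 was 0.520 of the TAM112 median, against 0.0892 for the other 5 TAM111 libraries, while in the 10.7 Mb before it both ratios were close to 1, at 0.992 and 1.04. 14 of the 55 loci kept a median of at least 1 FPKM in the 5 TAM111 libraries, so the stretch was low but not empty in TAM111. The bounds of the stretch were set after its values were seen.

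**Figure D4:**
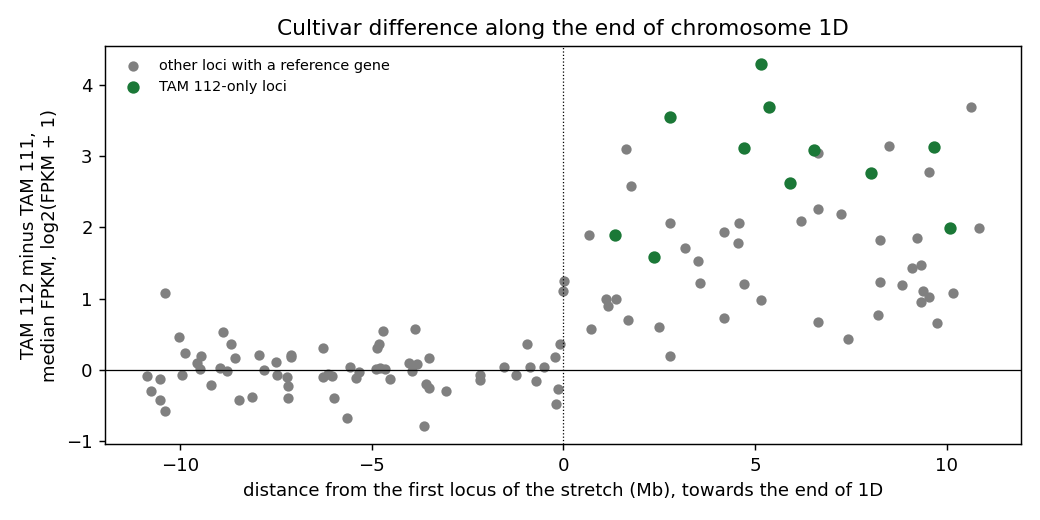
Difference of the median FPKM of TAM112 and TAM111, TAM112 minus TAM111 on the log2(FPKM + 1) scale, for loci of at least 1 FPKM along the end of 1D, by distance in Mb from the first locus of the stretch at 0. Points left of 0 lie around a difference of 0, and all 55 points from 0 on lie above it, the 11 TAM112-only loci among them.

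Over all chromosomes outside the left-out parts, such blocks were few. Windows of 4 Mb with at least 8 loci of at least 1 FPKM numbered 1945, and over their loci and those of sparser windows 2.29% were at least 2-fold higher in TAM112 and 2.13% in TAM111. At least 50% of the loci were 2-fold higher in TAM112 in 4 windows. 3 of these were the end of 1D, with 12 of 22, 13 of 17 and 16 of 19 loci, and held 11 TAM112-only loci. The other was on part 2 of 2B, with 7 of 11 loci and no TAM112-only locus. At least 50% were 2-fold higher in TAM111 in 2 windows, with 7 of 10 loci on part 1 of 6B and no TAM111-only locus, and with 4 of 8 loci on part 2 of 7B and 1 TAM111-only locus.

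The other TAM112-only runs were pairs. TraesCS3A01G516500 and TraesCS3A01G516800 lay 279899552 to 279910392 on part 2 of 3A and had TAM112 medians of 16.6 and 9.70 FPKM, each at 0 in 5 TAM111 libraries. The value of 224 FPKM of TraesCS3A01G516500 in GF wet replicate 1 came from a short transcript, the largest one having 8.35 FPKM. Pairs on 1B and 7D spanned 0.206 and 0.277 Mb. A further pair on part 1 of 7D, from 5178471 to 5778139, included the stem rust resistance locus TraesCS7D01G011800.

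The longest TAM111-only run had 6 loci on part 1 of 7A, from 2682795 to 3432630, where 10 expressed loci lay. TraesCS7A01G005000 had 2.73, 3.94 and 12.4 FPKM as the lowest, median and highest of the TAM111 libraries. TraesCS7A01G006500 had 2.04, 3.31 and 14.3 FPKM, and TraesCS7A01G007600, TraesCS7A01G007700 had 1.21, 2.78 and 7.76 FPKM. TraesCS7A01G005400, TraesCS7A01G007300 and TraesCS7A01G007500 had medians of 1.0, 1.93 and 1.15 FPKM. In TAM112 the highest value of any of the 6 was 0.0467 FPKM, and 4 of them were at 0 in all 8 libraries. In the first 4 Mb of 7A, 10 of 26 loci were at least 2-fold higher in TAM111 by the largest transcript and 1 was in TAM112, with a median log2 difference of -0.43. Besides the 6 members these were TraesCS7A01G002000, TraesCS7A01G002100, TraesCS7A01G003900 and TraesCS7A01G007400, the last of which lay within the run and had medians of 0.463 FPKM in TAM112 and 6.07 FPKM in TAM111. The direct neighbours outside the run differed from it: TraesCS7A01G008600, which follows it, had medians of 5.96 FPKM in TAM112 and 6.34 FPKM in TAM111 by the largest transcript, and TraesCS7A01G004600, which precedes it, was higher in TAM112, with 1.16 FPKM against 0 in TAM111.

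The next TAM111-only run had 3 loci in a row on part 1 of 3B, from 51912042 to 52554743, with no other expressed locus between them. Their TAM111 medians were 3.03 FPKM for TraesCS3B01G082000, TraesCS3B01G082100, 6.61 FPKM for TraesCS3B01G082300 and 6.90 FPKM for TraesCS3B01G082800. The largest transcript of TraesCS3B01G082300 held a median of 1.99 fragments. Of the pairs, 3 lay on 6D and 2 on part 2 of 7B, of which 1 included the coatomer locus TraesCS7B01G462900, and the RF9-like TraesCS7B01G459600, at 263508762 to 263526409, lay between the pairs. Loci without a reference gene that met the same thresholds numbered 120 for TAM112 and 235 for TAM111 of 7147 expressed ones, and 6 and 11 of them were within 1 Mb of a locus of the matching group.

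The rule did not use the labels of treatment or stage, but its floor of 1 FPKM in every TAM112 library keeps out loci that are silent in dry or in wet TAM112 leaves, so the shares called among all loci are not a matched background. The dry response was tested with limma on log2(FPKM + 1) over 48944 loci in 1 fit of all 15 libraries, and calls needed at least a 2-fold change with a Benjamini-Hochberg adjusted p below 0.05. For the difference between 2 dry–wet changes only the p was asked for. 89 of the 90 TAM112-only loci and 92 of the 95 TAM111-only loci were among those tested. The shared spread of this fit does not suit either group well. At the TAM112-only loci the TAM111 libraries that stand apart widen it, and at the TAM111-only loci 8 TAM112 libraries at or near 0 narrow it. The counts are therefore given also with the libraries of 1 cultivar alone and, for the TAM112-only loci, without the 2 libraries. Without the 2, the spread at the TAM112-only loci still counts the TAM111 GF dry libraries, mostly at or near 0. The median standard error at GF was then 0.391, against 0.421 with TAM112 alone. For TAM111 the fit without the 2 leaves 1 library each of GF wet, HD dry and HD wet leaves. Its spread at the TAM111-only loci then comes mostly from TAM112 libraries at or near 0, so no response is read from its calls. Their numbers are listed only among the processing alternatives.

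At GF, none of the 89 TAM112-only loci was called between dry and wet TAM112 leaves with all 15 libraries, against 5.81% of all loci tested, and 2 had an unadjusted p below 0.05. The median log2 change was 0.06, against 0.07 over all loci and 0.15 over loci of at least 1 FPKM in every TAM112 library. Without the 2 TAM111 libraries the median standard error of these loci was 0.391 in place of 0.656, and 3 rose and 2 fell (5.62%, against 3.89% of all loci). With the TAM112 libraries alone 1 rose and 2 fell (3.37%, against 2.50% of all loci).

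TraesCS2B01G058900 had 12.1 and 8.03 FPKM in GF dry TAM112 leaves, against 41.4 and 34.9 FPKM in GF wet leaves. It fell by 1.84 ± 0.236 on the log2 scale (SE, n = 2 each) with the TAM112 libraries alone (limma, adjusted p = 0.0308). At HD it had 6.72 and 5.20 FPKM in dry leaves, against 19.3 and 21.1 FPKM in wet leaves, a log2 change of -1.62 (limma, adjusted p = 0.111 with the TAM112 libraries alone). The dry libraries were below the wet ones at both stages and did not overlap with them. With all 15 libraries its adjusted p at GF was 0.412.

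TraesCS1B01G350700 had 15.6 and 14.2 FPKM in GF dry leaves, against 4.63 and 7.03 FPKM in GF wet leaves of TAM112. It rose by 1.24 ± 0.233 (SE) without the 2 TAM111 libraries (limma, adjusted p = 0.0416). With the TAM112 libraries alone its adjusted p was 0.0635. TraesCS6D01G002000 had 31.1 and 24.5 FPKM in GF dry leaves, against 11.9 and 10.1 FPKM in GF wet leaves. Its adjusted p was 0.0484 without the 2 libraries and 0.0768 with TAM112 alone (limma). Neither locus overlapped between dry and wet at GF, and TraesCS6D01G002000 did so at HD, with 14.5 and 20.04 FPKM in dry leaves against 12.9 and 17.8 FPKM in wet leaves.

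The other calls rested on which transcripts were summed. TraesCS6B01G396100 had 4.63 and 4.76 FPKM in GF dry leaves, against 14.2 and 23.1 FPKM in GF wet leaves of TAM112, and fell by 1.75 on the log2 scale (limma, adjusted p = 0.0476 with TAM112 alone). By its largest transcript it had 1.27 and 1.96 FPKM in dry leaves, against 7.55 and 1.70 FPKM in wet leaves, which overlap. TraesCS4A01G094200 had 15.9 and 20.4 FPKM in GF dry leaves, against 6.48 and 5.59 FPKM in GF wet leaves. At HD it had 12.7 and 13.6 FPKM in dry leaves, against 35.2 and 25.5 FPKM in wet leaves, and its dry–wet change differed between the stages by 2.57 (limma, adjusted p = 0.0498 with TAM112 alone and 0.711 with all 15 libraries). By the largest transcript its GF dry values were 4.38 and 8.05 FPKM, on both sides of the wet ones. These 5 loci were picked after their values were seen.

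At HD none of the 89 TAM112-only loci was called between dry and wet TAM112 leaves in any of these 3 fits. With all libraries, without the 2 and with TAM112 alone, 0.449%, 0.405% and 0.421% of all loci were called, and 1, 8 and 5 of the 89 had an unadjusted p below 0.05. The median log2 change was 0.10, against 0.04 over all loci and 0.07 over those of at least 1 FPKM in every TAM112 library. Between GF and HD, averaged over dry and wet, none was called in the 3 limma fits either, against 1.62%, 0.846% and 0.738% of all loci, and 1, 15 and 9 had an unadjusted p below 0.05. The median log2 change between the stages was -0.02, against 0.01 over all loci. The dry–wet change differed between the stages at none with all libraries (1 at an unadjusted p below 0.05, against 0.192% of all loci called), and at TraesCS4A01G094200 alone in the other fits, against 0.339% of all loci without the 2 and 0.603% with TAM112 alone.

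Leaving out 1 library made a call in each of these comparisons. Without TAM112 GF dry replicate 2, 1 locus was called at GF and 1 between the dry–wet changes of the stages. Without TAM112 HD wet replicate 2, 1 was called at HD and 1 between the stages, and without TAM112 HD dry replicate 1, 1 was called between the stages.

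At GF, 8 of the 92 TAM111-only loci rose and 1 fell in dry against wet TAM111 leaves with all 15 libraries (9.78%, against 2.78% of all loci tested in either direction and 1.68% that rose). With the libraries scaled to a common median ratio or to common quantiles, 5 rose and 3 fell. The median of the 92 loci was 0.37 in log2 change, against 0.10 over all loci. With the TAM111 libraries alone none was called, while 15 had an unadjusted p below 0.05 (limma; 1.36% of all loci were called, and 1.29% with the 2 libraries left out as well, where 11 of the 92 had such a p). Without the 2 libraries that stand apart the median was 0.01. That fit called 1.47% of all loci, and calls at the TAM111-only loci are not counted from it. The count of rising loci turned on 1 of the 2 libraries: without TAM111 GF wet replicate 1 alone, 2 rose and 4 fell with a median of 0.01, while without HD dry replicate 1 8 rose and 1 fell.

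At HD, 3 TAM111-only loci fell and none rose in dry against wet TAM111 leaves with all 15 libraries (3.26%, against 0.486% of all loci and 0.427% that fell), with a median log2 change of -0.46 against 0.00 over all loci. The other library that stands apart is HD dry. Without both, the median was -0.07. That fit called 0.921% of all loci. Calls at the TAM111-only loci are not counted from it, since TAM112 libraries at or near 0 set most of their spread. With the TAM111 libraries alone none was called by limma, against 0.686% of all loci, and 10 had an unadjusted p below 0.05. With the 2 left out there as well none was called, against 1.38% of all loci, and 11 had such a p. Leaving out TAM111 GF wet replicate 1 or GF wet replicate 2 gave 7 falling loci each. HD wet leaves of TAM111 had 1 library, so that a change at HD rests on its single value.

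TraesCS7B01G459600, the RF9-like resistance locus, had 2.03 and 2.11 FPKM in HD dry TAM111 leaves, against 14.8 FPKM in the HD wet library. It fell by 2.36 ± 0.358 on the log2 scale (SE; limma, adjusted p = 0.0304 with all libraries). At GF it had 17.2 and 8.25 FPKM in dry leaves, against 18.7 and 21.9 FPKM in wet leaves, a log2 change of -0.71 (limma, adjusted p = 0.272). The dry libraries were lower at both stages. The call at HD was lost without the 2 libraries (adjusted p = 0.101), with TAM111 alone (adjusted p = 0.247) and, at an adjusted p of 0.052 to 0.096, without either HD dry library of TAM111 or any one of the 4 dry TAM112 libraries.

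TraesCS7A01G005400, in the 7A run, had 0.188 and 0.201 FPKM in HD dry TAM111 leaves, against 3.03 FPKM in the HD wet library, and fell by 1.76 ± 0.274 (SE; limma, adjusted p = 0.0331). Without HD dry replicate 1 or HD dry replicate 2 the adjusted p was 0.084 and 0.094. At GF it had 1.0 and 0.707 FPKM in dry leaves, against 2.19 and 3.24 FPKM in wet leaves (limma, adjusted p = 0.0519). Dry leaves had the lower values at both stages, with no overlap, though HD wet leaves had a single library. The HD call was lost with the TAM111 libraries alone and with a pseudocount of 0.1.

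TraesCS7A01G007300, the RPP13-like locus of the same run, moved in opposite directions at the stages. In GF dry TAM111 leaves it had 5.03 and 4.46 FPKM, against 1.45 and 1.93 FPKM in GF wet leaves. In HD dry leaves it had 0.332 and 0.350 FPKM, against 4.97 FPKM in the HD wet library. The dry–wet difference was 1.10 ± 0.201 at GF (SE; limma, adjusted p = 0.0224) and -2.16 ± 0.246 at HD (adjusted p = 0.00695). The GF call was lost without GF dry replicate 1 (adjusted p = 0.087) or GF wet replicate 1 (adjusted p = 0.082) of TAM111. By the largest transcript alone the GF values were 0.662 and 1.07 FPKM in dry leaves, against 1.45 and 1.93 FPKM in wet leaves, so that the rise at GF came from the other transcripts summed at this locus. The HD call was also lost by the largest transcript (log2 change -1.20, adjusted p = 0.142).

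3 loci had the largest rises at GF. TraesCS2B01G207300 had 4.72 and 4.51 FPKM in GF dry TAM111 leaves and was listed at 0 in both GF wet libraries (limma, adjusted p = 0.00811). Its largest transcript was at 0 in every library. TraesCS4B01G126100, the leucine-rich repeat receptor kinase, had 6.13 and 2.16 FPKM in GF dry leaves and was listed at 0 in both GF wet libraries (limma, adjusted p = 0.0121). Its largest transcript held a median of 1.07 fragments, and without GF wet replicate 1 or replicate 2 its adjusted p was 0.066 and 0.052. TraesCS7D01G290400 had 2.92 and 12.2 FPKM in GF dry leaves, against 0.704 and 0.591 FPKM in GF wet leaves (log2 change 2.13, adjusted p = 0.0446), and lost the call when any one of 13 libraries was left out, at an adjusted p between 0.059 and 0.164.

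The falling locus at GF was TraesCS1B01G373100, with 0 and 0.322 FPKM in GF dry TAM111 leaves, against 1.83 and 4.51 FPKM in GF wet leaves (log2 change -1.78, limma adjusted p = 0.0462). It lost the call without any one of 11 libraries, at an adjusted p between 0.065 and 0.198. Without the 2 libraries that stand apart, TraesCS6D01G376400 had a log2 change of -4.23. GF wet leaves then had replicate 2 alone, with 121 FPKM, of which 113 FPKM came from transcripts under 200 bases. Its largest transcript had 8.10 FPKM there, against 4.29 and 6.99 FPKM in GF dry leaves. The same value of 121 FPKM enters its difference between the dry–wet changes of the stages, -4.02 in that fit. The remaining 5 calls at GF with all 15 libraries had log2 changes of 1.10 to 1.81. TraesCS3B01G290800 was among them, with 1.40 (adjusted p = 0.0111), and kept its call without each of the 15 libraries. That call was lost with the TAM111 libraries alone (limma, adjusted p = 0.0927) and with the libraries of the comparison alone (0.191). It was also lost with a pseudocount of 0.1 (0.101) and with named transcripts only (0.0669).

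**Figure D5:**
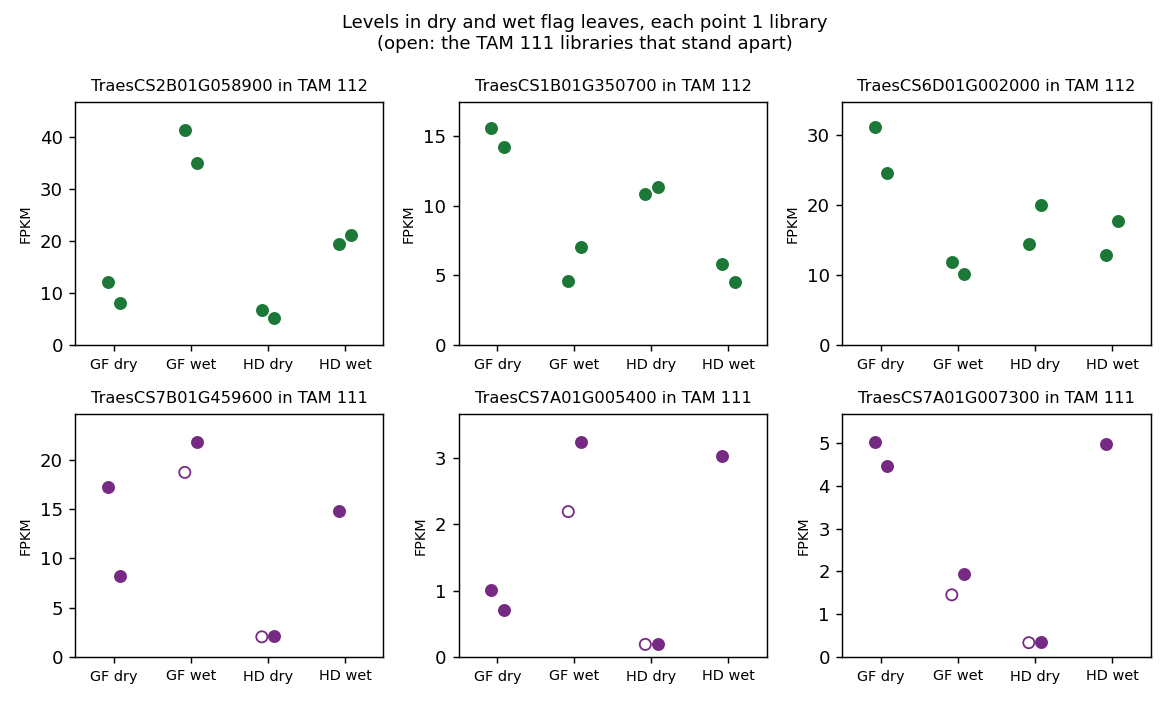
FPKM of 3 TAM112-only loci in TAM112 (upper row) and 3 TAM111-only loci in TAM111 (lower row), each point 1 library, with GF dry, GF wet, HD dry and HD wet from left to right and open circles for TAM111 GF wet replicate 1 and HD dry replicate 1. TraesCS2B01G058900 and TraesCS7A01G005400 are lower in dry than in wet leaves at both stages. By the summed FPKM shown, TraesCS7A01G007300 is higher in dry leaves at GF and lower at HD, while its largest transcript is lower in dry leaves at GF too.

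Between GF and HD, averaged over dry and wet, 1 TAM111-only locus rose and 2 fell in TAM111 with all libraries (3.26%, against 0.474% of all loci). The fit without the 2 libraries called 0.609% of all loci, and calls at the TAM111-only loci are not counted from it. With TAM111 alone none was called by limma, against 0.740% of all loci and, without the 2, 1.29%, and 9 had an unadjusted p below 0.05 each time. TraesCS7D01G055800 rose by 1.42 (limma, adjusted p = 0.0295), TraesCS5A01G523400 had a log2 change of -2.07 (adjusted p = 0.0349) and TraesCS6B01G170500 one of -1.25 (adjusted p = 0.0439). By the largest transcript these last changes were -1.60 (adjusted p = 0.0759) and -0.07 (adjusted p = 0.928). Without TAM111 HD dry replicate 2, TAM112 HD wet replicate 1 or TAM112 HD wet replicate 2, 1 locus was called.

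The dry–wet change differed between GF and HD at 1 of the 92 TAM111-only loci, TraesCS7A01G007300, against 0.202% of all loci. The difference was 3.25 ± 0.318 on the log2 scale (SE; limma, adjusted p = 0.00657). It was 3.12 without the 2 libraries that stand apart. That fit called 0.529% of all loci, and calls at the TAM111-only loci are not counted from it. With the TAM111 libraries alone the difference had an adjusted p of 0.0497 (limma). There 1 locus was called, against 0.858% of all loci. By the largest transcript of the locus alone it was 0.67 (adjusted p = 0.745). With TAM111 alone and without the 2, none was called by limma, 8 had an unadjusted p below 0.05, and 2.81% of all loci were called. Leaving out TAM111 GF dry replicate 1, GF dry replicate 2, GF wet replicate 1, GF wet replicate 2, HD dry replicate 1 or HD dry replicate 2 gave 3, 5, 2, 5, 2 and 4 loci in that order, and TraesCS7A01G007300 was among them each time.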

How the data were processed

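Flag leaf RNA was sequenced, and per the labels and the study's methods the authors ran bcl2fastq 1.7, Trimmomatic 0.38, TopHat2 and Cufflinks against IWGSC RefSeq v1.0. The deposited values are FPKM per assembled transcript, one file for each of 15 libraries, with a merged gene catalogue in which each chromosome is split into parts. Depth (6.91 to 9.14 M fragments) was estimated from the confidence bounds beside the FPKM.

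Transcripts were assigned to catalogue loci by name, then by overlap (bedtools 2.31.1), strand ignored, and FPKM was summed per locus. Of 49568 loci at 1 FPKM or more in at least 2 libraries, 48944 were tested and 624 with a transcript assigned elsewhere were not. limma 3.58.1 in R 4.3.3 fitted log2(FPKM + 1) by 8 groups with a mean-variance trend. The fit was also run on simulated data, in which each locus had 1 mean and 1 spread over all libraries before changes were added. The simulated data held no locus expressed in 1 cultivar only, so they do not test the fit at the members. Fold changes on this scale understate changes at low levels. Samples came from pooled plants, and p-values measure the spread between libraries, with 1 or 2 per group.

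The loci, gene lists and rules were chosen with earlier results of these data known. Named loci were the 5 highest of each group, those with the 3 largest changes per direction among calls that do not overlap, the 2 longest runs, loci with a product name in the study's tables, loci nearest each threshold and those whose dry–wet change differed between stages. Alternatives were another pseudocount, no filter, 2 scalings, a replicate block, fewer libraries and other ways of assigning transcripts. Read counts were not used here, so no counting intervals are given.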

Additional observations from a re-analysis of the deposited data

Results flagged for a closer look

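The dry–wet change of TraesCS7A01G007300 in TAM111, a locus listed as an RPP13-like disease resistance protein, differed between GF and HD by a test of the difference itself (limma, log2 difference 3.25, adjusted p = 0.00657 with all 15 libraries). It had 5.03 and 4.46 FPKM in GF dry leaves against 1.45 and 1.93 FPKM in GF wet leaves, and 0.332 and 0.350 FPKM in HD dry leaves against 4.97 FPKM in HD wet leaves. The HD wet value is a single library, so the difference rests on it. Counted by the largest transcript alone the difference was 0.67 with an adjusted p of 0.745.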

How the results depend on the processing

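The numbers of loci depended on the thresholds. The 90 TAM112-only loci became 55 with a floor of 2 FPKM, 59 with transcripts named for a reference gene only (19 of them the same loci) and 1 when every TAM111 library had to be at most 0.1 FPKM. The 95 TAM111-only loci became 143 with a ceiling of 0.5 FPKM, 156 and 53 with floors of 0.5 and 2 FPKM, 62 with named transcripts only (31 of them the same loci), 30 when every TAM111 library had to reach 1 FPKM, and 52 when 5 of them had to. Leaving out 1 library gave 81 to 96 and 98 to 108 loci. By direct neighbours in the catalogue, 5 TAM112-only and 12 TAM111-only loci were in runs.

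For the TAM112-only loci, leaving out 1 library gave 0 to 1 calls in each of the 4 comparisons. Without the 2 TAM111 libraries 5 were called at GF, and with TAM112 alone 3 were. The dry–wet change differed between the stages at 1 locus without the 2 libraries, with TAM112 alone and with the libraries of that comparison alone.

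For the TAM111-only loci, calls at GF, at HD and between the stages, and loci whose dry–wet change differed between the stages, numbered 2, 0, 1 and 0 with a pseudocount of 0.1. The first 3 numbered 0 each with TAM111 alone or with the libraries of each comparison alone, and all 4 were 0 with TAM111 alone without the 2 libraries. Named transcripts gave 0 at GF, 1 at HD and 1 between the stages. No filter gave 6 at HD and 3 that differed. Without the 2 libraries 8 were called at HD, 6 between the stages and 4 differed. The numbers without the 2 libraries rest mostly on the spread of TAM112 libraries at or near 0, and no response is read from them. The largest transcript alone gave 1 between the stages and 0 that differed. Leaving out 1 library gave 6 to 9, 2 to 7, 1 to 4 and 1 to 5.

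With a replicate block 1 TAM111-only locus was called at HD and 0 between the stages. The replicate numbers do not pair the samples: 21 correlations of deviations between same-numbered libraries were -0.0388 to 0.0877. Across 16 single calls and their alternatives, TraesCS7A01G007300 at GF was the only one to turn round, with a log2 change of -0.53 by the largest transcript. The cause of these changes was not tested. The relation of calls to fragment numbers was not tested, and no HD comparison in TAM111 was run without its single wet library.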
